A study of Mus musculus with 9 samples.

Results

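The antioxidant and glutathione genes of the mouse are the enzymes that remove superoxide and peroxides, that make and recycle glutathione, and that couple glutathione to reactive molecules, together with their regulator Nfe2l2. Members were taken by gene name, not by measured value: the cytosolic glutathione transferases of the alpha, mu, pi, theta, kappa, omega and zeta classes, the membrane transferases Mgst1 to Mgst3, the glutathione peroxidases, the peroxiredoxins, the superoxide dismutases, catalase, the thioredoxins and their reductases, the enzymes of glutathione synthesis and recycling, Nnt, Hmox1, Nqo1 and Nfe2l2. These names matched 55 rows of the count table and gave 52 members among 46078 genes. A second row of Gstp1, Gstp2 and Txnrd2, without a single count, was set aside.

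The members were described in whole ovaries of 5 WT and 4 ERβKO mice, with 1 RNA-seq library per mouse. ERβKO mice were born to heterozygous parents and carried a germline deletion of exon 3 of Esr2, the gene of estrogen receptor β, which was made with a Rosa26-Cre deleter line from a floxed allele (Esr2tm1Gust) backcrossed to C57BL/6J. The WT mice were offspring without Cre. All mice are labelled as C57BL/6J and Untreated, mice of 4 to 20 weeks of age were used in the study, and the age of each mouse and its stage of the estrous cycle were not given in the sources used here. The treatment protocol attached to every sample, WT and ERβKO alike, goes against the label Untreated: it describes a high-fat or a control diet and injections of DPN, an agonist of estrogen receptor β, or of vehicle. It does not say which of these, if any, the 9 mice received, so a difference in diet or DPN between ovaries or genotypes cannot be told apart from genotype in any value below. The deletion is in the germline and was not limited to the ovary.

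As background, superoxide is turned into hydrogen peroxide by superoxide dismutases, and peroxide is reduced to water by catalase, by glutathione peroxidases and by peroxiredoxins, the latter with electrons from thioredoxin. Glutathione is made from amino acids by glutamate-cysteine ligase and glutathione synthetase, is kept reduced with NADPH, and is coupled to electrophiles by glutathione transferases. Nfe2l2 encodes NRF2, a transcription factor that binds antioxidant response elements of many of these genes and is held down by KEAP1. In the ovary, steroid-producing cells generate oxidants during steroid synthesis, and glutathione is a main antioxidant of granulosa cells and oocytes.

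Total counts were 12353740 to 16519975 in the WT libraries and 13088728 to 18717510 in the ERβKO libraries. Esr2 itself was measured at 12.4 to 23.9 FPKM in WT and 10.5 to 23.7 FPKM in ERβKO ovaries. That value covers the whole gene, and the deleted exon was not measured alone. FPKM are fragments per kilobase of gene, scaled to the mapped fragments of the library, as deposited, and are the level given for each ovary below. WT replicate 2 stood apart from the other WT ovaries on the first principal component of all genes, at 9.43 where the others lay at -43.8 to -15.6 and the ERβKO ovaries at 19.4 to 35.3. ERβKO replicate 1 stood apart by its adipocyte markers, whose 8 levels summed to 1772.5 FPKM against 256.1 to 526.1 in WT ovaries and 259.6 to 680.4 in the other ERβKO ovaries. All 10 luteal and all 10 granulosa markers were detected above 1 FPKM in at least 1 ovary.

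In ERβKO ovaries, 3 glutathione transferases were higher, Gstm6 by 2.10-fold, Gstm1 by 1.59-fold and Gsta3 by 1.48-fold. The transferase Gsto1, at 0.560 times, and the glutathione synthetase Gss, at 0.697 times their WT level, were lower. No member among the superoxide dismutases, catalase, glutathione peroxidases, peroxiredoxins, thioredoxins or their reductases was called by edgeR, nor was Nfe2l2. An unadjusted p under 0.05 by edgeR was reached by 1 of 3 superoxide dismutases, 1 of 5 tested glutathione peroxidases and 4 of 6 peroxiredoxins. Of the 4 members of the thioredoxin system, 1 reductase reached it. That level was reached by 19.8% of all tested genes. DESeq2 called 1 of the peroxidases and 2 of the peroxiredoxins, where it called 4.78% of all tested genes. Whole ovaries mix cell types, and fewer cells of a type cannot be told apart from less RNA per cell. A gene was called where edgeR's quasi-likelihood test gave a Benjamini-Hochberg adjusted p under 0.05 over all tested genes, the log2 fold change exceeded 0.4 in size and the mean FPKM exceeded 1 in a genotype.

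Of the 52 members, 48 had counts enough to be tested. Gpx5 was listed at 0 in every ovary, and Gsta1, Gstm3 and Gstt4 stayed under 1 FPKM. The 5 called members were 10.4% of the members tested, where 1.72% of all 16722 tested genes were called. Higher calls were 3 of the members against 0.915% of all genes, and lower calls were 2 against 0.801%. The members did not move one way, with 22 higher and 26 lower and a median log2 fold change of -0.03, beside -0.001 over all tested genes. Their median size of change was 0.21 on the log2 scale, beside 0.15 over all tested genes. The FPKM of the genotypes did not overlap for 8 members, 16.7% of those tested, against 7.60% of all tested genes. These 8 were Gstm6, Gstm1 and Gsta3, higher in ERβKO (3 members, with 4.29% of all genes), and Gsto1, Gss, Mgst2, Prdx2 and Prdx3, lower (5 members, with 3.31% of all genes). An unadjusted p under 0.05 by edgeR was reached by 19 members, 39.6% of those tested, against 19.8% of all genes, with 9 higher and 10 lower members against 9.81% and 10.0%.

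DESeq2, the tool of the study's methods, called 11 members under the same rule, 22.9% against 4.78% of all genes, and they were the 5 above together with Gstm2, Gpx3, Mgst2, Nnt, Prdx2 and Prdx6. Of these, 4 were higher and 7 lower, against 2.22% and 2.56% of all genes. The count of 5 moved to 9 without WT replicate 2 and to 4 without ERβKO replicate 1. It fell to 1 without ERβKO replicate 4 or WT replicate 5, and to 2 without ERβKO replicate 2, WT replicate 1 or WT replicate 4. Without ERβKO replicate 3 or WT replicate 3 it was 3. Calls over all genes moved too, from 287 to 912 without WT replicate 2 and to 60 without ERβKO replicate 2. They were 80 without ERβKO replicate 4, 110 without WT replicate 5, 118 without WT replicate 1 and 161 without WT replicate 4. Without ERβKO replicate 1 they were 253, and without ERβKO replicate 3 they were 152. Without WT replicate 3 they rose to 354, while the count of members fell to 3. With WT replicates 4 and 5 left out together, no member was called at an adjusted p under 0.05 by edgeR. The library numbers of these ovaries in the labels form a series apart from the other 7. In that fit 51 genes were called in all, 0.303% of those tested, and 16 members had an unadjusted p under 0.05. The share of all genes at that unadjusted level was not counted in that fit, so the 16 have no background beside them.

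**Figure D1:**
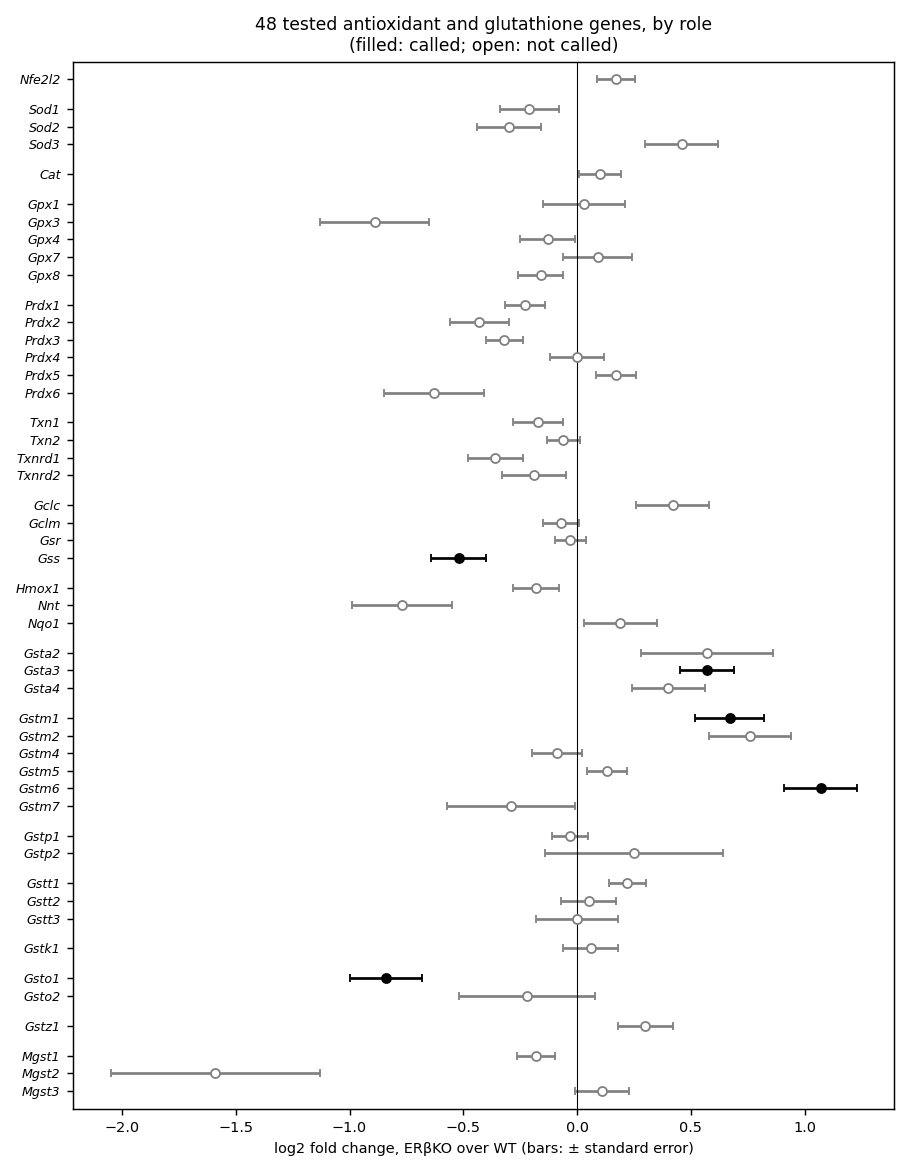
Log2 fold change of each of the 48 tested members, ERβKO over WT, grouped by role from Nfe2l2 at the top to the membrane transferases at the bottom; bars are ± 1 standard error from edgeR and filled points are called. The changes run from -1.59 for Mgst2 to 1.07 for Gstm6, and the 5 filled points lie on both sides of 0.

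The mu class holds the most abundant transferases of these ovaries. As the deposited FPKM tables place them on GRCm38, its 7 members lie side by side on chromosome 3, from Gstm5 at chr3:107895821-107898686 to Gstm4 at chr3:108040408-108044894. Gstm6 lies at chr3:107938847-107943749, Gstm2 at chr3:107981702-107986453 and Gstm1 at chr3:108012255-108017973, all of them on the minus strand. The 250 bases before the start of these genes are shown because 2 of the neighbours, Gstm6 and Gstm1, were called and Gstm2 lay next to the threshold. They come from RefSeq on GRCm38.p6, from chr3:107943735-107943984 for Gstm6, chr3:107986421-107986670 for Gstm2 and chr3:108017974-108018223 for Gstm1, and are written on the minus strand.
Gstm6: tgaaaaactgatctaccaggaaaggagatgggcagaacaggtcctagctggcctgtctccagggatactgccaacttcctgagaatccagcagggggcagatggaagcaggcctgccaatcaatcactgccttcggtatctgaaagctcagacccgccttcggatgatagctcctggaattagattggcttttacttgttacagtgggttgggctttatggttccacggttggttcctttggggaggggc
Gstm2: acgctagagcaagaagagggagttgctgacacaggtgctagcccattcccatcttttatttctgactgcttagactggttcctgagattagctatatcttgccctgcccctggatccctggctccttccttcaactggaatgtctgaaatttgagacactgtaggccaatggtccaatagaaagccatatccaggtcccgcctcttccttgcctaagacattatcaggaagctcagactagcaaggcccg
Gstm1: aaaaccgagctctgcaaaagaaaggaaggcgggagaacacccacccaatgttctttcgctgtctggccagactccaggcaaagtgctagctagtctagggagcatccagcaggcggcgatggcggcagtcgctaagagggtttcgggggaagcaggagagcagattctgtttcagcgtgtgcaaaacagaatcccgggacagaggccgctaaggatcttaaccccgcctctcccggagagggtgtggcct
None of the 3 windows held the antioxidant response element core, searched on both strands as TGAC or TGAG followed by any 3 bases and GC, the estrogen response element, searched as GGTCA, any 3 bases and TGACC, or the motif of NR5A receptors AAGGTCA, so none of their letters is in capitals.

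Gstm6 had the smallest p of all members. In the order of the replicate numbers, which is kept for every gene, WT ovaries had 5.21, 6.51, 7.33, 5.89 and 7.60 FPKM and ERβKO ovaries 10.6, 17.3, 12.9 and 14.9 FPKM. Every ERβKO ovary lay above every WT ovary, and the lowest of them was ERβKO replicate 1. The log2 fold change was 1.07 (SE 0.16, adjusted p = 0.0117 by edgeR). It stayed called without any single ovary, at adjusted p of 0.00433 to 0.0475 by edgeR, and missed the threshold at 0.0701 without WT replicates 4 and 5 together.

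Gstm1 was measured at 351.8, 355.3, 284.5, 355.4 and 301.0 FPKM in WT ovaries and at 389.8, 542.1, 645.4 and 551.8 FPKM in ERβKO ovaries. The genotypes did not overlap, and ERβKO replicate 1 again lay nearest to WT. This gave a log2 fold change of 0.67 (SE 0.15, adjusted p = 0.0470 by edgeR). The call was kept without ERβKO replicate 1, at an adjusted p of 0.00662 by edgeR, and without WT replicate 2, at 0.0335, and was lost without any other single ovary, at 0.0682 without WT replicate 3, 0.0752 without WT replicate 4, 0.10 without WT replicate 1, 0.105 without WT replicate 5, 0.101 without ERβKO replicate 3, 0.122 without ERβKO replicate 4 and 0.133 without ERβKO replicate 2.

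Gstm2, the most abundant mu class gene, showed a difference of like size with more spread. Its WT levels were 329.3, 472.2, 355.1, 422.4 and 333.2 FPKM and its ERβKO levels 416.9, 715.4, 780.7 and 721.3 FPKM. The genotypes overlapped through ERβKO replicate 1, which lay below WT replicates 2 and 4, while the other 3 ERβKO ovaries lay above every WT ovary. The fit gave a log2 fold change of 0.76 (SE 0.18) and missed the threshold with an adjusted p of 0.0594 by edgeR. Without ERβKO replicate 1 the adjusted p was 0.00662 and without WT replicate 2 it was 0.0297 by edgeR, and DESeq2 gave 0.00367 with all ovaries.

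The other mu class genes were not called. Gstm5, with 34.9 to 40.1 FPKM in WT and 34.5 to 47.8 FPKM in ERβKO ovaries, had a log2 fold change of 0.13 (adjusted p = 0.431 by edgeR). Gstm4 was at 4.94 to 6.81 and 5.30 to 6.45 FPKM. Gstm7 varied most among WT ovaries, from 18.7 FPKM in replicate 3 to 52.3 in replicate 5, and its ERβKO levels of 25.4 to 32.2 FPKM lay inside that range. Gstm3 stayed at 0.415 FPKM or less in every ovary. The cluster therefore held called and uncalled genes side by side, with Gstm7, which was tested, next to Gstm6 along the chromosome. Gstm3, the neighbour of Gstm6 on the other side, had too few counts to be tested.

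Summed over the class, the mu genes reached 710.4 to 902.6 FPKM in WT ovaries and 882.9, 1360.4, 1516.9 and 1369.8 FPKM in ERβKO replicates 1 to 4. They made up 66.3% to 69.4% of the summed FPKM of all cytosolic transferases in WT ovaries and 71.7%, 76.4%, 80.7% and 80.1% in the ERβKO ovaries. Gstm1 and Gstm2 together held 57.0% to 62.5% in WT and 65.5% to 75.9% in ERβKO ovaries. The shares of the genotypes did not overlap, and ERβKO replicate 1 lay nearest to WT in each. Mu class genes resemble each other, and the coding sequences of Gstm1, Gstm2 and Gstm6 were 82.6% to 86.4% identical over aligned bases. Of all stretches of 100 bases of their transcripts, 5.9% of Gstm1, 0.4% of Gstm2 and 1.1% of Gstm6 occurred in another gene, so read sharing was possible over only part of each gene at that length.

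**Figure D2:**
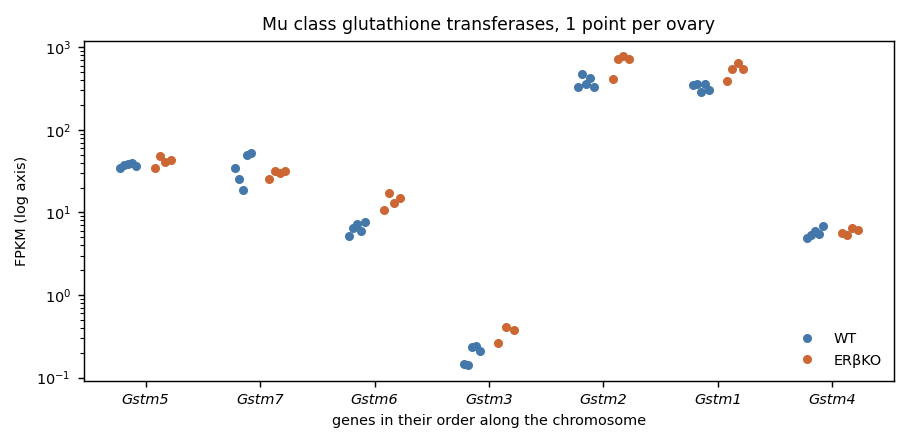
FPKM of the 7 mu class transferase genes in each ovary on a log axis, in their order along the chromosome, with WT to the left and ERβKO to the right of each gene; Gstm3 in ERβKO replicate 1 was 0 and has no point. All ERβKO points of Gstm6 and Gstm1 lie above the WT points, those of Gstm2 do so in 3 of 4 ovaries, and the points of Gstm5, Gstm7 and Gstm4 overlap.

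**Figure D3:**
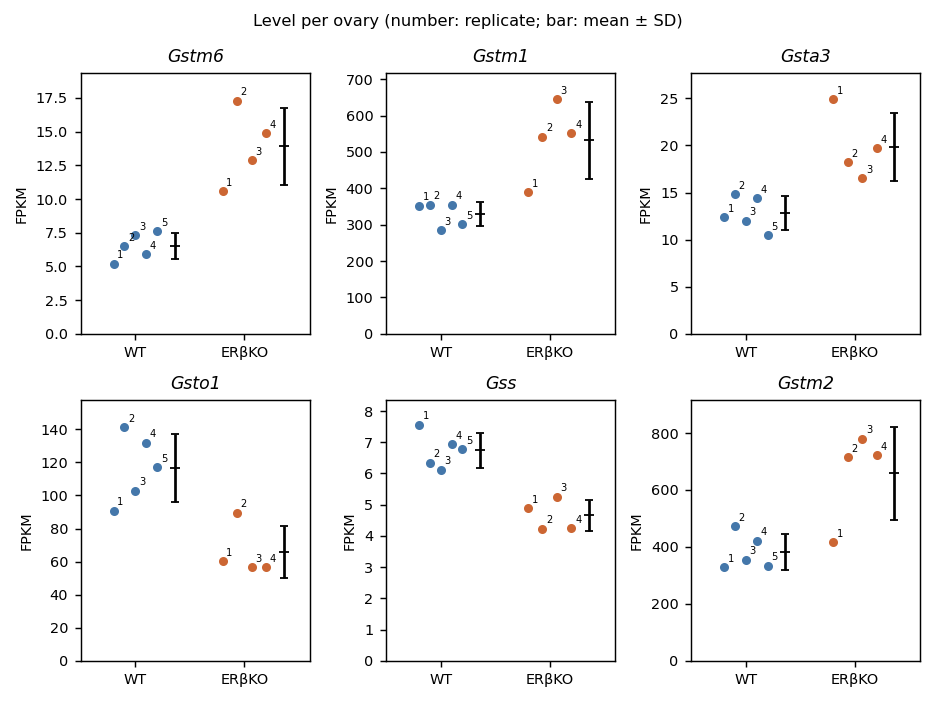
FPKM in each ovary, numbered by replicate, for the 5 called members and for Gstm2, with the mean ± SD beside each genotype and axes from 0. In the 5 called genes no ERβKO ovary overlaps a WT ovary, and in Gstm2 ERβKO replicate 1, at 416.9 FPKM, falls within the WT range.

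The alpha class is known for conjugating lipid peroxidation products. Gsta3 lies at chr1:21240589-21265661 on the plus strand, and the 250 bases before its start, at chr1:21240335-21240584 in the same RefSeq table, hold 1 antioxidant response element core, in capitals. They are shown because Gsta3 is the only called member with that element in its window.
Gsta3: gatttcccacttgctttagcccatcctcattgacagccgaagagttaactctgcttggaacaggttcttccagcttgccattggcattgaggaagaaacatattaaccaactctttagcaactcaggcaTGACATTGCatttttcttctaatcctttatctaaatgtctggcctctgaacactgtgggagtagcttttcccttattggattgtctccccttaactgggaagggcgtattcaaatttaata
The level of Gsta3 was 12.4, 14.8, 12, 14.4 and 10.5 FPKM in WT and 24.9, 18.2, 16.5 and 19.7 FPKM in ERβKO ovaries. The genotypes did not overlap, and ERβKO replicate 1 was the highest ovary. The log2 fold change was 0.57 (SE 0.12, adjusted p = 0.0393 by edgeR). The call was kept without WT replicate 2 (adjusted p = 0.0232 by edgeR) and without WT replicate 4 (0.0425), and was lost at 0.0529 without ERβKO replicate 3, 0.0557 without WT replicate 3, 0.0759 without ERβKO replicate 1, 0.0920 without WT replicate 5, 0.0934 without WT replicate 1, 0.104 without ERβKO replicate 4 and 0.111 without ERβKO replicate 2.

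All 3 tested alpha genes had positive log2 fold changes, with 1 called. Gsta4, the most abundant of them and the enzyme best known for clearing 4-hydroxynonenal, was measured at 55.9, 70.2, 46.8, 68.8 and 69.4 FPKM in WT and 61.3, 102.6, 88.8 and 79.9 FPKM in ERβKO ovaries. Its ERβKO replicate 1 lay within WT and the other 3 above it, with a log2 fold change of 0.40 (adjusted p = 0.202 by edgeR). Gsta2 spanned 4.08 to 8.77 FPKM in WT and 5.59 to 14.4 FPKM in ERβKO ovaries (log2 fold change 0.57, adjusted p = 0.302 by edgeR). Gsta1 and Gsta2 share 98.0% of their coding bases, so a read of one could be counted for the other.

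Omega class transferases reduce dehydroascorbate and arsenic compounds more than they conjugate glutathione. Gsto1, at chr19:47854970-47864790 on the plus strand, is their main member here, and the 250 bases before its start, at chr19:47854723-47854972, are shown as the largest lower call. No motif searched was found in them.
Gsto1: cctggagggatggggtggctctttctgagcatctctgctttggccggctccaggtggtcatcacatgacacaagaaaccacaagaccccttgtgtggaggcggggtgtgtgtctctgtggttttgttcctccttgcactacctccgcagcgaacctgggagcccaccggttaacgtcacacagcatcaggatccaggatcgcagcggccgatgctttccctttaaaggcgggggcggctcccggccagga
Gsto1 was measured at 90.9, 141.4, 102.9, 132.0 and 117.2 FPKM in WT and 60.4, 89.6, 56.6 and 56.6 FPKM in ERβKO ovaries. The genotypes did not overlap, but ERβKO replicate 2 lay just below WT replicate 1, the lowest WT ovary. This gave a log2 fold change of -0.84 (SE 0.16, adjusted p = 0.0317 by edgeR). It was lost without ERβKO replicate 1 (adjusted p = 0.0643 by edgeR), ERβKO replicate 3 (0.0871), ERβKO replicate 4 (0.103), WT replicate 4 (0.0684) or WT replicate 5 (0.0720), and was kept without each of the other 4 ovaries. Its relative Gsto2 stayed under 1 FPKM in every ovary.

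The remaining cytosolic transferases were not called. Gstp1, the main pi class enzyme, had almost the same level in both genotypes, at 73.0, 80.1, 72.3, 66.2 and 71.6 FPKM in WT and 66.2, 79.3, 73.3 and 69.1 FPKM in ERβKO ovaries (log2 fold change -0.03, SE 0.079). Gstt1 of the theta class was at 17.8, 18, 21.1, 19.1 and 17.1 FPKM in WT and 22.2, 24.5, 20 and 21.4 FPKM in ERβKO ovaries, with a log2 fold change of 0.22 (adjusted p = 0.175 by edgeR). Only ERβKO replicate 3 of Gstt1 lay within the WT range. Gstk1, the mitochondrial kappa class enzyme, was at 12.6, 11.4, 14.8, 11.8 and 12.8 FPKM in WT and 11.5, 14.1, 15.1 and 13.8 FPKM in ERβKO ovaries. Gstz1, which acts in tyrosine breakdown, was at 31.1, 30.2, 30.2, 36.6 and 30.1 FPKM in WT and 53.1, 38.8, 35.4 and 32.1 FPKM in ERβKO ovaries (log2 fold change 0.30, adjusted p = 0.206 by edgeR), highest in ERβKO replicate 1, the ovary with the high adipocyte markers. Gstp2, Gstt2 and Gstt3 had log2 fold changes of 0.25, 0.05 and -0.00, and their FPKM overlapped between genotypes. In Gstp2, 46.9% of the stretches of 100 bases occur in another gene, and its change was -0.06 on the log2 scale when FPKM were compared by limma, so its direction is uncertain.

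Glutathione is made in a pair of steps. Gclc, the catalytic subunit of the rate-limiting ligase, was measured at 35.4, 52.3, 30.0, 32.0 and 33.7 FPKM in WT and 39.3, 54.9, 50.8 and 53.3 FPKM in ERβKO ovaries. WT replicate 2 lay with the ERβKO ovaries, and the other 4 WT ovaries below all of them. The fit gave a log2 fold change of 0.42 (SE 0.16, adjusted p = 0.176 by edgeR), and without WT replicate 2 the adjusted p was 0.0198. The modifier subunit Gclm, at 18.4 to 23.0 FPKM in WT and 17.1 to 22.1 FPKM in ERβKO ovaries, did not share that difference (log2 fold change -0.07, SE 0.078).

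Gss, the synthetase of the last step, was lower in ERβKO ovaries. It lies at chr2:155563181-155592810 on the minus strand, and the 250 bases before its start, at chr2:155592811-155593060, held none of the motifs and are shown beside those of the called transferases.
Gss: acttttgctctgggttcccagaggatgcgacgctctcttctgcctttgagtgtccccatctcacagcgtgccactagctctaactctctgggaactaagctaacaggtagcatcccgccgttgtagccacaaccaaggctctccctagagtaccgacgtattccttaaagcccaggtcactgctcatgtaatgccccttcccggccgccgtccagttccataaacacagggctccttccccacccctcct
The level of Gss was 7.56, 6.35, 6.12, 6.94 and 6.77 FPKM in WT and 4.89, 4.23, 5.26 and 4.25 FPKM in ERβKO ovaries, without overlap. The log2 fold change was -0.52 (SE 0.12, adjusted p = 0.0487 by edgeR). It was kept without WT replicate 2 (adjusted p = 0.0326 by edgeR), ERβKO replicate 3 (0.0377) or WT replicate 3 (0.0466) and lost without any of the others, at 0.0904 without ERβKO replicate 1, 0.0926 without WT replicate 4, 0.103 without WT replicate 5, 0.110 without WT replicate 1, 0.133 without ERβKO replicate 4 and 0.153 without ERβKO replicate 2. In the annotation, 15.4% of its exon length lies opposite exons of Acss2, Gssos1 and Gssos2, and the sources used here do not say if strand entered the counting. Gsr, the reductase that recycles oxidized glutathione, was at 14.1 to 16.1 FPKM in WT and 13.6 to 16.1 FPKM in ERβKO ovaries (log2 fold change -0.03, SE 0.067).

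Superoxide dismutases were not called. Sod1, the cytosolic enzyme, was measured at 429.5, 312.5, 350.9, 422.7 and 490.5 FPKM in WT and 368.5, 337.8, 349.4 and 345.3 FPKM in ERβKO ovaries. The ERβKO ovaries lay close together inside the wide WT range (log2 fold change -0.21, adjusted p = 0.387 by edgeR). Sod2, the mitochondrial enzyme, was at 12 to 19.4 FPKM in WT and 11.1 to 12.5 FPKM in ERβKO ovaries (log2 fold change -0.30, adjusted p = 0.256 by edgeR). Sod3, the secreted enzyme, leaned the other way, with 15.3, 12.9, 18.1, 11.3 and 10.6 FPKM in WT and 19.9, 15.6, 20.2 and 21.4 FPKM in ERβKO ovaries (log2 fold change 0.46, SE 0.16, adjusted p = 0.141 by edgeR). Cat, catalase, was at 45.1, 40.3, 45.4, 45.8 and 46.5 FPKM in WT and 60.0, 45.6, 46.1 and 44.8 FPKM in ERβKO ovaries (log2 fold change 0.10, adjusted p = 0.584 by edgeR), and 3 of the 4 ERβKO ovaries lay within the WT range.

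The glutathione peroxidases were led by Gpx3, the secreted selenium enzyme. Its level was 454.2, 485.0, 413.5, 309.2 and 380.5 FPKM in WT and 209.5, 146.6, 346.4 and 190.4 FPKM in ERβKO ovaries. ERβKO replicate 3 lay between WT replicates 4 and 5, and the other 3 ERβKO ovaries below all WT ovaries. The log2 fold change of -0.89 (SE 0.24) had an adjusted p of 0.0797 by edgeR, 0.0206 without ERβKO replicate 3 and 0.00574 by DESeq2. Gpx4, which reduces lipid peroxides in membranes, had a log2 fold change of -0.13 (SE 0.12), with 163.6 ± 24.8 FPKM (SD, n = 5) in WT and 152.5 ± 12.9 FPKM (SD, n = 4) in ERβKO ovaries. Gpx1, Gpx7 and Gpx8 had log2 fold changes of 0.03, 0.09 and -0.16, and none passed the test.

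Among the peroxiredoxins, 4 of 6 had a negative log2 fold change with an unadjusted p under 0.05 by edgeR, against 10.0% of all tested genes. None was called. Prdx1, the most abundant, was at 203.3, 159.2, 169.9, 141.7 and 182.9 FPKM in WT and 125.2, 145.7, 176.1 and 138.5 FPKM in ERβKO ovaries (log2 fold change -0.23, adjusted p = 0.196 by edgeR). The genotypes of Prdx1 overlapped widely. Prdx2, a cytosolic peroxiredoxin, was at 154.2, 104.3, 136.1, 120.0 and 157.4 FPKM in WT and 99.5, 93.5, 102.2 and 100.7 FPKM in ERβKO ovaries (log2 fold change -0.43, SE 0.13, adjusted p = 0.106 by edgeR). Prdx3, the mitochondrial one, was at 60.6, 51.0, 65.4, 53.1 and 60.2 FPKM in WT and 46.4, 47.7, 49.1 and 45.3 FPKM in ERβKO ovaries (log2 fold change -0.32, SE 0.080, adjusted p = 0.0664 by edgeR). Neither Prdx2 nor Prdx3 overlapped between genotypes, and WT replicate 2 lay nearest to ERβKO in both. Without WT replicate 2 the adjusted p was 0.0225 for Prdx2, which was then called, and 0.0219 for Prdx3 by edgeR. Prdx3 was not called there, since its log2 fold change stayed between -0.37 and -0.28 with any single ovary left out and a call needs a size over 0.4.

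Prdx6, which uses glutathione in place of thioredoxin, was measured at 71.6, 41.1, 40.6, 64.0 and 85.2 FPKM in WT and 50.6, 40.6, 34.6 and 40.2 FPKM in ERβKO ovaries. WT replicates 2 and 3 lay with the ERβKO ovaries and WT replicates 1, 4 and 5 above them. The log2 fold change of -0.63 (SE 0.22) had an adjusted p of 0.148 by edgeR and 0.0479 by DESeq2. Prdx4 and Prdx5 had log2 fold changes of 0.00 and 0.17. In the thioredoxin system, all 4 members had negative log2 fold changes and none was called. Txn1 was at 60.8, 68.5, 85.1, 61.6 and 61.2 FPKM in WT and 54.9, 65.1, 64.9 and 57.6 FPKM in ERβKO ovaries (log2 fold change -0.17, adjusted p = 0.401 by edgeR). Txnrd1, the cytosolic reductase that recharges it, was at 33.9, 25.8, 24.9, 30.5 and 36.8 FPKM in WT and 25.5, 23.5, 23.7 and 23.3 FPKM in ERβKO ovaries (log2 fold change -0.36, SE 0.12, adjusted p = 0.140 by edgeR). ERβKO replicate 1 lay inside the WT range of Txnrd1 and the other 3 below it. The mitochondrial pair Txn2 and Txnrd2 had log2 fold changes of -0.06 and -0.19.

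Nnt, the mitochondrial transhydrogenase that makes NADPH, was measured at 29.3, 17.0, 15.5, 23.3 and 24.6 FPKM in WT and 18.6, 11.7, 10.6 and 11.9 FPKM in ERβKO ovaries. ERβKO replicate 1 lay above WT replicates 2 and 3, and the other 3 ERβKO ovaries below every WT ovary. This gave a log2 fold change of -0.77 (SE 0.22) with an adjusted p of 0.0929 by edgeR, 0.0388 without WT replicate 2 and 0.0101 by DESeq2. As background, mice of the C57BL/6J strain carry a deletion of several Nnt exons that is not found in some other substrains, and these gene totals do not tell which allele an ovary carried. Hmox1, the inducible haem oxygenase, was at 22.2, 26.0, 21, 19.3 and 23.4 FPKM in WT and 18.2, 18.8, 22.5 and 21.1 FPKM in ERβKO ovaries (log2 fold change -0.18, adjusted p = 0.372 by edgeR). Nqo1, a quinone reductase and common reporter of NRF2 activity, had a log2 fold change of 0.19 (adjusted p = 0.554 by edgeR), at 2.22 to 3.78 FPKM in WT and 2.95 to 3.87 FPKM in ERβKO ovaries.

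The membrane transferase Mgst2, which can also make leukotriene C4, had the largest size of change of the 48 members tested, without a call. Its level was 54.6, 32.3, 31.5, 39.0 and 54.3 FPKM in WT and 25.2, 4.41, 11.9 and 11.3 FPKM in ERβKO ovaries. The genotypes did not overlap, and the ERβKO ovaries spread widely. The fit gave a log2 fold change of -1.59 (SE 0.46) with an adjusted p of 0.0992 by edgeR, 0.0272 without ERβKO replicate 1 and 0.0342 by DESeq2. Mgst1, the abundant form, was at 230.4, 181.1, 225.6, 179.7 and 200.1 FPKM in WT and 192.3, 175.5, 195.4 and 175.8 FPKM in ERβKO ovaries (log2 fold change -0.18, adjusted p = 0.274 by edgeR), and Mgst3 had a log2 fold change of 0.11.

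**Figure D4:**
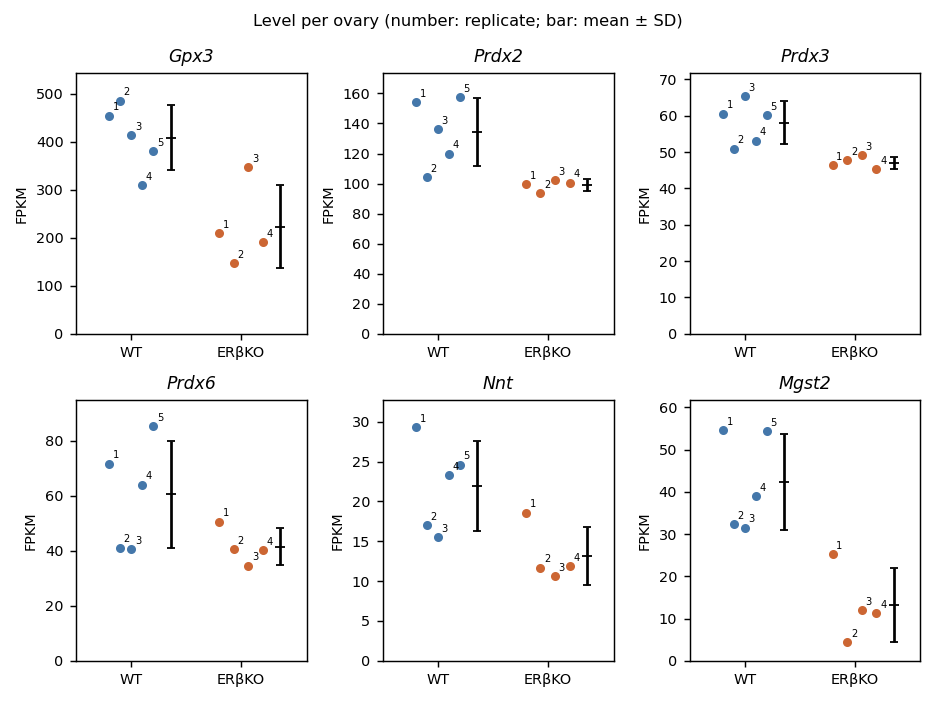
FPKM in each ovary, numbered by replicate, for 6 members with a negative log2 fold change that edgeR did not call, with the mean ± SD beside each genotype and axes from 0. Prdx2, Prdx3 and Mgst2 do not overlap between genotypes, while Gpx3, Prdx6 and Nnt do, and WT replicates 1 and 5 are the highest WT ovaries of Prdx2, Prdx6, Nnt and Mgst2.

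The regulator Nfe2l2 was measured at 58.6, 63.3, 66.8, 60.6 and 63.7 FPKM in WT and 66.6, 74.6, 80.2 and 65.0 FPKM in ERβKO ovaries. ERβKO replicates 2 and 3 lay above every WT ovary and ERβKO replicates 1 and 4 within the WT range. The log2 fold change was 0.17 (SE 0.084, adjusted p = 0.291 by edgeR). Keap1, the inhibitor of its protein, was at 12.5, 14.0, 11.9, 11.9 and 11.3 FPKM in WT and 13.8, 12, 11.9 and 13.3 FPKM in ERβKO ovaries (log2 fold change 0.04, SE 0.070). RNA levels of Nfe2l2 and Keap1 do not measure the activity of the NRF2 protein. The antioxidant response element core stood in 16 of the 58 promoter windows found for 44 members, or 27.6%, and in 23.0% of all 32851 windows of the table. Among the called members it stood in the window of Gsta3, and among the uncalled ones in those of Gclm, Nfe2l2, Prdx1, Sod1 and Txnrd1, for example. The estrogen response element stood in none of the member windows and in 0.1% of all windows, and the NR5A motif in that of Gstk1 and in 4.1% of all windows. With the full estrogen response element in only 21 of all 32851 windows, its absence from the 58 member windows tells nothing about the members. A match is a run of letters and not a binding site, and motifs outside these 250 bases were not searched.

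Of 68 other genes of the redox system, in 8 roles, 67 were tested and 4 were called, 5.97% against the 1.72% of all genes. Sesn2, a stress-induced sestrin, was higher, and Srxn1, Idh1 and Abcc4 were lower, with 33 log2 fold changes above and 34 below 0 among the genes tested. Srxn1, the sulfiredoxin that repairs overoxidized peroxiredoxins, was at 11.9, 10.9, 10.7, 10.3 and 12 FPKM in WT and 7.10, 7.96, 8.11 and 5.93 FPKM in ERβKO ovaries (log2 fold change -0.62, SE 0.11, adjusted p = 0.0207 by edgeR). Sesn2 was at 3.52, 3.58, 3.47, 3.82 and 3.72 FPKM in WT and 4.72, 5.95, 6.46 and 5.14 FPKM in ERβKO ovaries (log2 fold change 0.60, SE 0.11, adjusted p = 0.0221 by edgeR). The WT ovaries of both genes lay close together and apart from all ERβKO ovaries.

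Idh1, the cytosolic isocitrate dehydrogenase that supplies NADPH, was at 450.5, 213.3, 271.3, 332.7 and 592.1 FPKM in WT and 139.6, 108.7, 173.3 and 148.6 FPKM in ERβKO ovaries (log2 fold change -1.41, SE 0.29, adjusted p = 0.0380 by edgeR). It was the only called gene of 8 that supply NADPH, among which Me1 had a log2 fold change of -0.89 (adjusted p = 0.103 by edgeR) and G6pdx one of 0.11. Abcc4, an export pump for conjugates, was at 5.03, 4.99, 4.44, 5.53 and 5.93 FPKM in WT and 4.27, 3.87, 3.88 and 3.58 FPKM in ERβKO ovaries (log2 fold change -0.42, SE 0.093, adjusted p = 0.0481 by edgeR). None of the 4 calls held without ERβKO replicate 2, where edgeR's adjusted p was 0.0686 for Srxn1, 0.0899 for Sesn2, 0.126 for Idh1 and 0.143 for Abcc4. All 4 were also lost without ERβKO replicate 4 (0.0616, 0.0545, 0.104 and 0.131 by edgeR, in the same order), without WT replicate 1 (0.0589, 0.0632, 0.0903 and 0.0917) or without WT replicate 5 (0.0546, 0.0509, 0.0593 and 0.0884), and Idh1 and Abcc4 without ERβKO replicate 1 (0.0743 and 0.0639), ERβKO replicate 3 (0.0636 and 0.0940) or WT replicate 4 (0.0691 and 0.0964).

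The smallest p among the uncalled redox genes belonged to Glrx3 and Ephx1. Glrx3, a glutaredoxin, was at 51.3, 45.4, 51.6, 49.0 and 53.6 FPKM in WT and 43.7, 42.8, 41.4 and 41.5 FPKM in ERβKO ovaries (log2 fold change -0.27, adjusted p = 0.0540 by edgeR). Its change was under the 0.4 that a call needs, so it was not called by DESeq2 either, at an adjusted p of 0.00192. Ephx1, the microsomal epoxide hydrolase, was at 119.2, 138.8, 101.0, 111.7 and 88.5 FPKM in WT and 149.4, 162.6, 152.1 and 140.5 FPKM in ERβKO ovaries (log2 fold change 0.41, adjusted p = 0.0606 by edgeR). Neither overlapped between genotypes. No gene was called among the 7 of NRF2 control, the 6 of iron and haem handling, the 7 of selenium use or the 5 sources of oxidants. At an unadjusted p under 0.05 by edgeR they held 1, 2, 0 and 0 genes, against 19.8% of all tested genes.

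The 10 luteal markers summed to 6220.0, 3133.5, 3911.1, 4174.9 and 6740.3 FPKM in WT and 2600.1, 2588.3, 4075.6 and 2859.8 FPKM in ERβKO ovaries. None of them was at 0, and 9 of 10 had a negative log2 fold change without a call. WT replicates 1 and 5 had the highest sums, and they were also the highest WT ovaries for 11 of the 26 members with a negative log2 fold change, or 42.3%, against 16.5% of all tested genes with a negative change. For members with a positive change this was so in 0 of 22, against 5.5% of all such genes. The 11 members were Gpx4, Mgst2, Nnt, Prdx1, Prdx2, Prdx6, Sod1, Sod2, Txn2, Txnrd1 and Txnrd2. Neither Gss nor Gsto1 was among them. WT replicates 1 and 5 also had the highest sums of the 8 endothelial markers among WT ovaries, at 112.9 and 103.5 FPKM. Their total counts were the smallest of the WT libraries, at 12353740 and 13593489. They lay lowest on the first principal component, at -36.7 and -43.8. The part of the luteal markers, or of any of these features, in these differences was not tested.

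The 10 granulosa markers summed to 813.0 to 1077.6 FPKM in WT ovaries and to 1063.9, 1454.2, 1402.8 and 1426.0 FPKM in ERβKO replicates 1 to 4. None was at 0, 9 of 10 had a positive log2 fold change and 1, Hsd17b1, was called. ERβKO replicate 1 was thus the ERβKO ovary with the lowest granulosa sum and also the lowest level of Gstm1, Gstm2, Gstm6 and Gsta4. It also had the lowest theca sum of the ERβKO ovaries, at 88.3 FPKM. Its adipocyte and oocyte sums were the highest of all ovaries, at 1772.5 and 144.9 FPKM. Of the 8 adipocyte markers, 7 had a positive change and none was at 0. The other, Plin4, had a log2 fold change of -1.82 (adjusted p = 0.155 by edgeR). Plin4 was at 28.2 FPKM in ERβKO replicate 1, against 131.8 in WT replicate 5. ERβKO replicate 1, the highest in the adipocyte sum, was also the highest ovary for Gsta3, Gstz1 and Cat. Gsta3 without that ovary had an adjusted p of 0.0759 by edgeR, and without ERβKO replicate 2 one of 0.111. Its call was also lost without most of the other single ovaries. The ERβKO ovaries other than replicate 1 had 16.5 to 19.7 FPKM of Gsta3, above the highest WT ovary at 14.8 FPKM. The 8 macrophage markers summed to 210.8 to 395.5 FPKM in WT and 259.0 to 416.6 FPKM in ERβKO ovaries, and the 8 endothelial ones to 89.2 to 112.9 and 89.0 to 106.2 FPKM, with no call in either list. The sums of the 8 stromal markers were 633.8 to 1024.4 and 862.5 to 928.0 FPKM. The 6 theca markers summed to 91.4, 156.0, 42.1, 63.6 and 48.3 FPKM in WT and 88.3, 426.6, 493.4 and 104.7 FPKM in ERβKO ovaries. ERβKO replicates 2 and 3 lay above every other ovary, and most of their sum was Cyp17a1, at 390.0 and 472.0 FPKM (log2 fold change over all ovaries 2.35, adjusted p = 0.205 by edgeR). Of the 5 theca markers tested, 3 had a positive change and none was called, and Insl3 was at 0 in some ovaries. All 8 oocyte markers had a positive change, none was called and none was at 0, and they summed to 33.4 to 110.2 FPKM in WT and 74.7 to 144.9 FPKM in ERβKO ovaries. The 9 markers of oviduct and surface epithelium summed to 1435.2 to 2563.2 and 1716.8 to 2124.8 FPKM, with no call. The part of any of these cell types in the members' differences was not tested.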

How the data were processed

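RNA of whole ovaries was measured in 5 WT and 4 ERβKO mice. The authors prepared stranded mRNA libraries, mapped the read pairs to GRCm38 with STAR and deposited raw counts per gene made with featureCounts, without normalization. The deposited FPKM and TPM values and the mean coverage per gene were made by the authors with StringTie, per ovary and without pooling. TPM and coverage were not used for a result. The library totals above limit the precision of low genes.

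Groups follow the genotype in the labels. Members, gene lists, motifs and alternatives were chosen with earlier results of these data known. Counts of 46078 genes were filtered with filterByExpr, scaled by TMM and compared with edgeR 4.0.16 in R 4.3.3 (quasi-likelihood test, genotype as the only factor, Benjamini-Hochberg adjustment over 16722 genes). The standard error is the size of the log2 fold change over the square root of F. The labels do not name litters or cages, so p-values measure the spread between these mice. The call thresholds are those of the study's methods. The fit was tested on simulated data. Values per ovary were printed for members with an adjusted p under 0.05, the 12 smallest unadjusted p, the most abundant member of each role, Nfe2l2, Keap1 and Nnt, and of the other redox genes those called and the 6 smallest p. Other values were added where a result turned on them.

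Alternatives were DESeq2 1.42.0, limma 3.58.1 on log2(FPKM + 1) or log2(FPKM + 0.1), other size factors and filters, a replicate block and left-out libraries. Tables were handled in Python 3.11.15 with pandas 2.3.3 and NumPy 2.4.6. Promoter windows are RefSeq's, on GRCm38.p6, for 44 of the 52 members, and overlaps between genes come from GENCODE M21, in which 83.2% of the shared gene IDs have the coordinates of the deposited tables.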

Additional observations from a re-analysis of the deposited data

Results flagged for a closer look

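In each genotype, the highest and lowest ovary of each of the 48 tested members was compared with the others by Dixon's criterion, and 9 of 96 groups held an ovary that stood apart, where chance gives about 1 in 20. Of these, 3 were in ERβKO replicate 1, with Cat at 60.0 FPKM against 44.8 to 46.1 in the other ERβKO ovaries, Nnt at 18.6 against 10.6 to 11.9, and Txnrd1 at 25.5 against 23.3 to 23.7. WT replicate 2 stood apart with Gclc at 52.3 FPKM against 30.0 to 35.4 and Cat at 40.3 against 45.1 to 46.5. The other 4 were Gsto1 in ERβKO replicate 2 at 89.6 FPKM against 56.6 to 60.4, Sod2 in ERβKO replicate 4 at 11.1 against 12.4 to 12.5, Gstz1 in WT replicate 4 at 36.6 against 30.1 to 31.1, and Prdx4 in WT replicate 3 at 41.9 against 28.0 to 31.0.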

How the results depend on the processing

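The 5 called members became 11 with DESeq2 and 0 without WT replicates 4 and 5, and ranged from 1 to 9 with 1 ovary left out. Of all tested genes, 1.72% were called in the main fit, 4.78% with DESeq2 and 0.303% without WT replicates 4 and 5. Without the filter on low counts 1.40% were called, and with 1 ovary left out 0.356% to 5.51%. Those higher (3) became 0 without WT replicates 4 and 5 and ranged from 1 to 5. Those lower (2) became 7 with DESeq2, 1 without the filter on low counts and 0 without WT replicates 4 and 5, and ranged from 0 to 4. The 4 called redox genes outside the members became 9 with DESeq2 (4 higher, 5 lower, against 2.22% and 2.56% of all genes) and 0 without WT replicates 4 and 5 in either direction. With 1 ovary left out they ranged from 0 to 12 (0 to 7 higher, 0 to 5 lower). The 12 came without WT replicate 2, where 5.51% of all tested genes were called. At an unadjusted p under 0.05 by edgeR, 16 members and 16 of the other redox genes passed without WT replicates 4 and 5, and 13 to 17 of the other redox genes where leaving out 1 ovary gave 0. The share of all genes at that level was counted only in the main fit, at 19.8%. The cause of these moves was not tested. With the replicate number as a block, 3 members were called (1 higher), where 0.927% of all tested genes were, and 2 other redox genes (0 higher, with 9 higher at an unadjusted p under 0.05 by edgeR). Gstm6 and Gsto1 stayed called (edgeR adjusted p = 0.0257 and 0.0338), Nnt was gained (0.0344), and Gstm1 (0.165), Gsta3 (0.110) and Gss (0.161) were lost under the block. Correlations of deviations within a number were 0.095, 0.130, -0.043 and -0.011, with no reference set beside them. The labels do not say if ovaries of the same number share more than that number, and this was not tested.

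Of 986 values of named genes under alternatives, 865 kept direction and side of the threshold, and 66 lost a call. Another 23 gained an adjusted p under 0.05, and 32 changed sign, in 11 genes that were never called. An adjusted p under 0.05 was not always a call. By DESeq2, Prdx3 (adjusted p = 0.00833) and Glrx3 (0.00192) had changes under 0.4 in size and were not called. Without WT replicates 4 and 5, Gclm moved to 0.03, Gpx1 to -0.10, Gpx4 to 0.00, Gstm7 to 0.21 and Prdx4 to -0.05. By limma, Gstm4 moved to 0.04, Gstp2 to -0.06 and Gstt3 to 0.04 and 0.05. With 1 ovary left out, Gpx1 ranged from -0.15 to 0.17, Gsr from -0.06 to 0.00, Gstp1 from -0.07 to 0.01, Gstp2 from -0.08 to 0.49, Gstt2 from -0.04 to 0.11, Gstt3 from -0.10 to 0.08 and Prdx4 from -0.04 to 0.13. Prdx4 was -0.01 with the replicate block and -0.00 with DESeq2 or its size factors.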
